A study of Mus musculus with 32 samples.

Results

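The 72 genes described here encode carboxylesterases, aldo-keto reductases and dehydrogenases of aldehydes, alcohols and hydroxysteroids. They are all genes of the array whose symbol begins with Ces and a digit, Akr1, Aldh and a digit, Adh and a digit, or Hsd3b, Hsd11b or Hsd17b and a digit, among 18194 genes with a probe set of their own. They comprise 13 carboxylesterases, 14 aldo-keto reductases, 20 aldehyde dehydrogenases, 7 alcohol dehydrogenases and 18 hydroxysteroid dehydrogenases. RNA of CD-1 mouse liver was measured on 32 Affymetrix Mouse Genome 430 2.0 arrays, 2 in each of 16 groups. Liver of 10-week-old females was taken 1, 2 or 6 h, 12 or 18 h, 24 or 30 h, or 48 or 72 h after removal of 2/3 of the organ together with the gallbladder, under ketamine and xylazine, with buprenorphine given afterwards. Embryonic liver, microdissected and not operated on, was taken at 10.5 and 11.5 days, at 12.5 and 13.5 days, and at 14.5 and 16.5 days after conception (dpc). The group that both series are set against is unoperated liver of 10-week-old females (time 0). Each array held a pool of at least 3 tissues.

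These families finish much of the chemistry that the liver performs on small lipophilic molecules. Carboxylesterases of the endoplasmic reticulum split esters and amides, including stored triglyceride and many drugs. Alcohol and aldehyde dehydrogenases act one after the other, on ethanol and acetaldehyde, and on retinol and retinaldehyde, the last giving retinoic acid. Aldo-keto reductases of the Akr1c and Akr1d groups and the hydroxysteroid dehydrogenases interconvert the active and inactive forms of steroids, and some of them act in bile acid synthesis.

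No group was operated on without removal of tissue, so effects of the operation and of the loss of liver cannot be told apart. In pooled tissue, fewer cells of a type and less RNA per cell cannot be told apart either. The 2 arrays of a group are pools of different animals, so p-values measure the spread between pools and not between animals. The labelled tissue was checked against Alb (albumin, 956 to 8941 in embryonic and 7277 to 10739 in adult arrays), Afp (alpha-fetoprotein, 2407 to 4556 in embryonic and 9.06 to 66.1 in adult arrays) and Cyp2e1, an adult liver cytochrome (50.1 to 93.2 in embryonic and 5078 to 8611 in adult arrays). The description of every embryonic sample is that of adult liver, and the age field gives the earliest stage for all of them, so the stage was taken from the title, which the source name matches. Values are array intensities, so the level of one gene cannot be set against that of another. Members of the Ces1, Ces2, Akr1c, Hsd3b, Adh6 and Aldh1a groups are close copies of each other, and their probe sets may take up RNA of a neighbour. The pair of 48 h was the least alike. The SD of the difference of their log2 values was 0.756, against 0.256 to 0.536 in the other 15 groups. It was taken over the 14978 genes whose highest group mean was above the median of all values. Array 2 of 48 h also had the highest log2 ratio of 3' to 5' signal for Actb (2.42) among the 32 arrays, and array 1 of 10.5 dpc the highest for Gapdh (1.49, against -0.32 in its partner). Array 2 of 12 h stood above its partner as well, at 1.39 against 0.57 for Actb and 0.30 against -0.29 for Gapdh. Both 2 h arrays were higher still for Actb, at 1.435 and 1.72. At time 0, array 1 read below array 2 by a median of 0.16 on the log2 scale over the 72 genes, and by more in several bright genes such as Akr1a1 (1981 and 4468).

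After hepatectomy these genes were most often lowered at 12 and 18 h, and the aldo-keto reductases made up most of the genes that fell at 18 h. At 18 h, 19 of the 72 genes were lowered and 0 raised, where 3.24% of all genes were lowered and 4.41% raised. At 12 h, 11 were lowered and 1 raised, where 4.57% of all genes were lowered and 4.18% raised. The count of lowered genes at 12 h was 7 without time 0 array 1, 6 without time 0 array 2 and 7 without 12 h array 2. Of the 19 genes that fell at 18 h, 10 were aldo-keto reductases, 4 aldehyde dehydrogenases, 4 hydroxysteroid dehydrogenases, 1 a carboxylesterase and 0 alcohol dehydrogenases. The median log2 change at 18 h was -0.93 for the aldo-keto reductases and -0.21 for all 72 genes, beside 0.03 for all genes. Without the second 18 h array, which read lower than the first by a median of 0.385 over the 72 genes, the median of the 72 was -0.08, that of the aldo-keto reductases -0.85, and 10 genes were lowered, and without time 0 array 2 12 were. Averaged over 12 to 30 h, 9 genes were lowered and 0 raised, beside 2.1% and 2.54% of all genes. Over 1 to 6 h, 0 were raised and 0 lowered (0.693% and 0.253% of all genes), with 9 of the 72 at an unadjusted p under 0.05. Over 48 to 72 h, 0 were raised and 2 lowered (1.83% and 0.588%), the lowered count being 6 without 48 h array 1 and 1 without either time 0 array or 72 h array 1. Of the other single times, 0 of the 72 were called at 2 h (0.418% of all genes raised and 0.126% lowered), at 6 h (1.01% and 0.967%) and at 30 h (0.231% and 0.0879%). At 24 h 0 were raised and 3 lowered (0.61% and 0.561%), at 48 h 0 and 3 (0.605% and 0.824%) and at 72 h 0 and 2 (2.61% and 0.297%). An F test over all 9 times called 31 of the 72 genes, beside 17.7% of all genes. All these calls are of limma at an adjusted p under 0.05, with the spread taken from all 32 arrays. With a fit of the 4 arrays of 18 h and time 0 alone, 2 of the 19 calls at 18 h were left, those of Hsd3b2 and Hsd3b3, and at 12 h 0 were left.

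**Figure D1:**
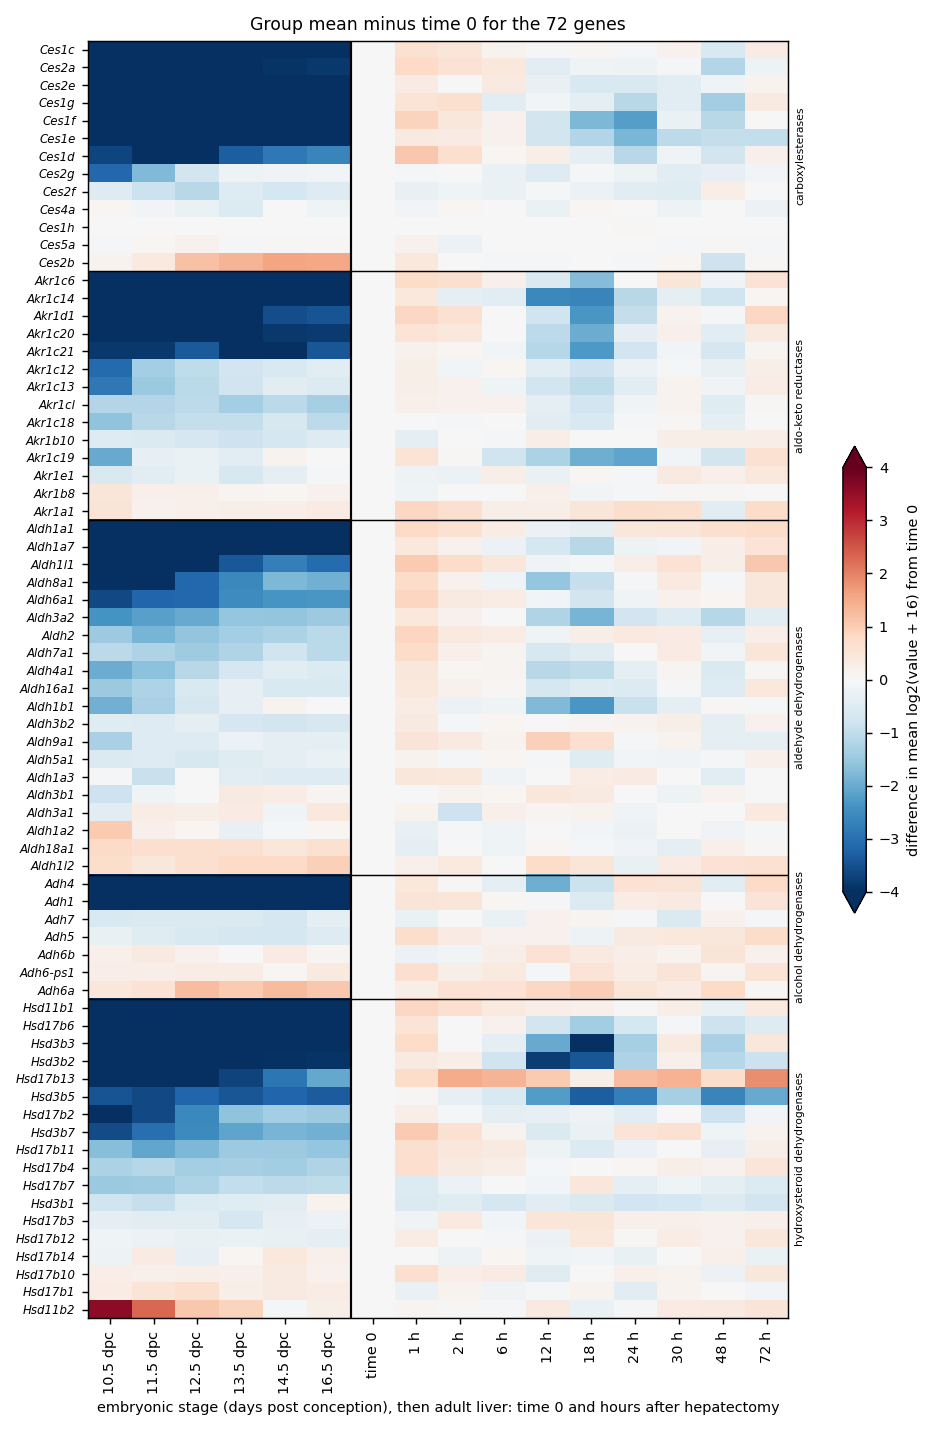
Difference of each group's mean log2(value + 16) from time 0 for the 72 genes, ordered within each family by the embryonic change; columns run over the 6 embryonic stages, then time 0 and the 9 times after hepatectomy, and colours end at 4 in either direction. Blue blocks fill the embryonic columns of most families. In the adult columns dark blue lies mainly at 12 to 24 h, in rows such as Akr1c14, Akr1d1, Hsd3b2, Hsd3b3, Aldh1b1, Aldh3a2 and Ces1f. The Hsd3b5 row is dark at 48 h as well.

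The Akr1c genes lie side by side on chromosome 13. Of the 9 members that are neighbours there (Akr1c14, Akr1c18, Akr1c13, Akr1c19, Akr1c12, Akr1c6, Akr1c20, Akr1c21 and Akr1e1), 8 were lowered at 18 h, all except Akr1e1, and 4 at 12 h, beside 3.24% and 4.57% of all genes. Promoters of 3 of these neighbours, all lowered at 18 h, are printed here with that of Adh4, which was lowered at 12 h, and that of its neighbour Adh1 on chromosome 3, which was not. The sequences are RefSeq's, in build GRCm38.p6, from 250 bases before to 50 after the annotated start, 5′ to 3′ in the direction of the gene: Akr1c14 at chr13:4059341-4059640 on the + strand, Akr1c6 at chr13:4434093-4434392 on the + strand, Akr1c21 at chr13:4573825-4574124 on the + strand, Adh4 at chr3:138415247-138415546 on the + strand and Adh1 at chr3:138277335-138277634 on the + strand. The start taken for Akr1c14 lies within the annotated gene, which runs from 4048991 to 4090560 on chromosome 13. Capitals mark matches, on either strand, to TATAAA (the TATA box), to CCAAT (the CCAAT box) and to short forms of the sites of HNF1 (GTTAAT), of FOXA (TGTTTAC) and of the glucocorticoid receptor (TGTTCT).
Akr1c14: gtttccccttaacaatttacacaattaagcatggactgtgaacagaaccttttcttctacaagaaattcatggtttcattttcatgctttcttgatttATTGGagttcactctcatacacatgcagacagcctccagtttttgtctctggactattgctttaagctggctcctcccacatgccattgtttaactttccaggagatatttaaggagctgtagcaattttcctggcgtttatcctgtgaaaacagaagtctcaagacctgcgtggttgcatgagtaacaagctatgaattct
Akr1c6: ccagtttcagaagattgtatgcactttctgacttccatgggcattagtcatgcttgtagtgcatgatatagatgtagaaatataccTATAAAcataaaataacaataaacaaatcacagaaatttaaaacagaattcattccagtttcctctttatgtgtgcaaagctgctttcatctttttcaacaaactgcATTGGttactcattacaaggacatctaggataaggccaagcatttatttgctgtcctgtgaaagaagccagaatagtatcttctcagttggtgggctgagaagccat
Akr1c21: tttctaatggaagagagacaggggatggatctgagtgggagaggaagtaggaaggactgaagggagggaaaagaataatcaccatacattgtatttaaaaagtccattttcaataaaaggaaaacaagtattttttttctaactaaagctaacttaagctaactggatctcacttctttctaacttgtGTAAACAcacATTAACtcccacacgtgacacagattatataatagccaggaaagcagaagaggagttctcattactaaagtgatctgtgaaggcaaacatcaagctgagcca
Adh4: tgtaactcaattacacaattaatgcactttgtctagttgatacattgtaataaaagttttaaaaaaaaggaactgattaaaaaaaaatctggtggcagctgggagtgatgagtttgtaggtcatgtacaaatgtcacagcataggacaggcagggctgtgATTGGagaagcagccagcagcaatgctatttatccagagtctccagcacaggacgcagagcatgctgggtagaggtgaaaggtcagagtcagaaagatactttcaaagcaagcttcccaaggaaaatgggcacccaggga
Adh1: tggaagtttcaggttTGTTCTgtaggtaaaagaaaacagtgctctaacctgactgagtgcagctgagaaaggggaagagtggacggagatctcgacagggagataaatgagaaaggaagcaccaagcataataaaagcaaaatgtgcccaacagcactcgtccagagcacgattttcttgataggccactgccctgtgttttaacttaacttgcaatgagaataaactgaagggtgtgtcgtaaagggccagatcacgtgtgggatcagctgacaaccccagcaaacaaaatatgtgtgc

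The table of promoters held 55 of the 72 genes and 27025 genes in all. CCAAT was present in 30 of the 55 (54.5%), beside 37.9% of all promoters, and in 10 of the 18 of them that belong to the genes lowered at 18 h (55.6%). TTGCNNAA, a short form of the C/EBP site, was present in 13 of the 55 (23.6%), beside 10.8% of all promoters, but in 2 of the 18 (11.1%). TGTTTAC was present in 5 of the 55 (9.09%), beside 3.55% of all promoters, and in 3 of the 18 (16.7%), Akr1c21 among them. For TATAAA (14.5% of the 55 and 14.2% of all) and GTTAAT (7.27% and 7.2%) the shares were close. Both strands were searched for each motif, and CCAAT, as the shortest, is met most often. TGTTCT was in 14.5% of the 55 and 19% of all. The last 3 motifs searched were CAAAGTCCA, of HNF4 (1.82% of the 55 and 0.477% of all), TGANTCA, of AP-1 (5.45% and 7.93%), and TGACNNNGC, of NRF2 (16.4% and 12.5%). Of the printed promoters, those of Akr1c14, Akr1c6 and Adh4 hold a CCAAT match, that of Akr1c6 also TATAAA, that of Akr1c21 a GTTAAT and a TGTTTAC match, and that of Adh1 a TGTTCT match.

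Akr1c14, a rodent liver enzyme that reduces ketosteroids at the A ring, read 113 and 169 at 12 h and 186 and 94.3 at 18 h, against 864 and 947 at time 0. Its arrays at 12 and 18 h lay below all 16 other adult arrays. It fell at 12 h (log2 change -2.58, SE 0.31, adjusted p = 2.19e-05) and at 18 h (log2 change -2.63, SE 0.31, adjusted p = 1.53e-05), and read 552 and 301 at 24 h and 1021 and 893 at 72 h. Akr1c6, which oxidises and reduces sex steroids in mouse liver, read 1339 and 858 at 18 h, against 2635 and 5018 at time 0. Its 18 h arrays were the lowest of the adult series, and the time 0 arrays stood far apart from each other. Akr1c6 fell at 18 h (log2 change -1.75, SE 0.33, adjusted p = 0.00215), a call that was lost without the second array of either group. Akr1c21 read 58.8 and 48.8 at 18 h, against 356 and 299 at time 0, with no overlap (log2 change -2.30, SE 0.37, adjusted p = 0.000458).

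Akr1c20 read 243 and 153 at 18 h, against 757 and 864 at time 0 (log2 change -1.98, SE 0.28, adjusted p = 0.000125). A second probe set of Akr1c20, dimmer throughout, went the same way, with 26.7 and 18.7 at 18 h, against 140.0 and 85.0 at time 0. Akr1c19 stayed low longest of the group. It read 135.5 and 61.8 at 18 h and 69.4 and 95.3 at 24 h, against 484 and 341 at time 0, with log2 changes of -1.96 (adjusted p = 0.000117) and -2.12 (adjusted p = 0.000254). At 30 h it was back at 365 and 388. It read 217 and 267 at 48 h, below both time 0 arrays but not called, and 673 and 594 at 72 h. The other neighbours moved less: Akr1c12 fell at 18 h by 0.83 on the log2 scale, Akr1c13 by 1.02 and Akr1c18, the progesterone-inactivating member, by 0.60. Akr1cl, which belongs to the same group but lies apart, fell by 0.78. The call of Akr1c12 was lost without the second array of time 0 or of 18 h, that of Akr1c13 without the second 18 h array, and those of Akr1c18 and Akr1cl whichever of the 4 arrays was left out.

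Akr1d1 reduces the A ring of steroids in bile acid synthesis. It read 232 and 164 at 18 h, against 937 and 1180.1 at time 0, and no adult array outside 18 h was as low (log2 change -2.34, SE 0.39, adjusted p = 0.000554). A second probe set read 137 and 113 at 18 h, against 719 and 687 at time 0. The aldo-keto reductases outside the Akr1c and Akr1d groups were not called at any of the 9 times. Akr1a1, the general aldehyde reductase that also serves ascorbate synthesis in mice, read 4818 and 3542 at 18 h, against 1981 and 4468 at time 0. Akr1b8 (106 and 89.5 at 18 h, against 103 and 109 at time 0) and Akr1b10 (80.5 and 93.1 at 18 h, against 69.9 and 108 at time 0), both aldose reductase relatives, had values that overlap or adjoin those of the unoperated arrays.

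**Figure D2:**
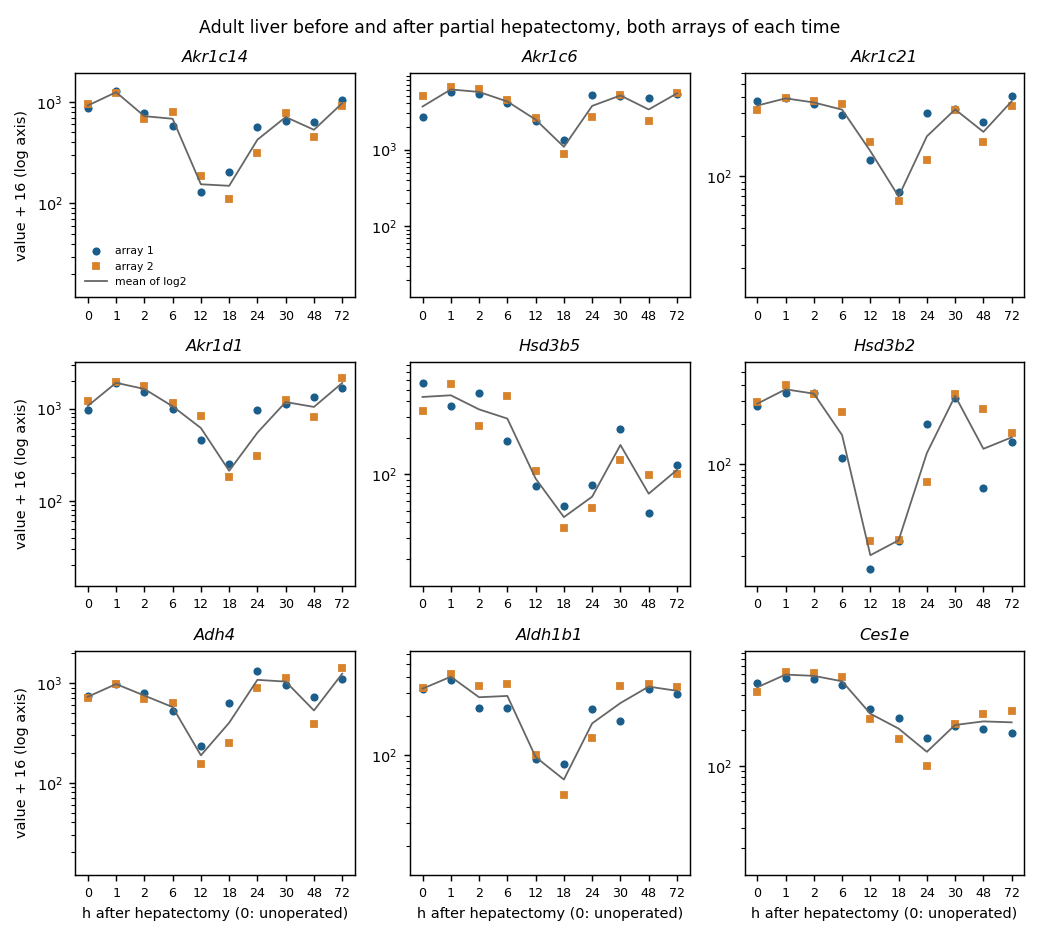
Value + 16 on a log axis for 9 genes at time 0 and at 9 times after hepatectomy; points are the 2 arrays of each time and the line joins the means of their log2 values. The Akr1c, Akr1d1, Hsd3b, Adh4 and Aldh1b1 panels dip at 12 to 18 h and are higher again at 30 h, whereas Hsd3b5 and Ces1e are still low at 72 h.

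Among the hydroxysteroid dehydrogenases the fall was concentrated in the Hsd3b neighbours on chromosome 3, of which Hsd3b2, Hsd3b3 and Hsd3b5 were lowered at 18 h and Hsd3b1 was not. Hsd3b5, a liver ketosteroid reductase best known as a male-biased gene of adult mice, read 64.3 and 90.01 at 12 h and 38.7 and 19.9 at 18 h, against 549 and 320.3 at time 0. It fell at 18 h (log2 change -3.30, SE 0.41, adjusted p = 2.96e-05). Unlike most members it was still lowered later, at 32.3 and 83.0 at 48 h (log2 change -2.66, SE 0.41, adjusted p = 0.00144) and 102 and 83.7 at 72 h (adjusted p = 0.00649). The adult samples are labelled female, and Eif2s3y, a gene of the Y chromosome, read -10.8 to 7.62 on the 20 adult arrays. On the 12 embryonic arrays Eif2s3y read -3.41 to 238. The comparisons of embryo with time 0 may thus differ in sex as well as in age, and the part of sex was not tested. Hsd3b2 was at the floor of the measurement at 12 h (-8.40 and 10.1) and 18 h (10.3 and 10.7), against 260.3 and 282 at time 0, and read 301 and 326 at 30 h. Its log2 changes, which depend on the added constant where values are near 0, were -3.81 at 12 h (adjusted p = 2.70e-05) and -3.44 at 18 h (adjusted p = 8.40e-05). Hsd3b3 read 17.7 and 8.22 at 18 h, against 630.4 and 564 at time 0 (log2 change -4.42, SE 0.72, adjusted p = 0.000479). Its other probe set, the one whose name does not mark it as shared with related genes, had left the unoperated level earlier, with 30.6 and 27.2 at 6 h, against 172 and 162 at time 0. Taken over 1 to 6 h, that probe set fell by 1.60 on the log2 scale (adjusted p = 0.000172), whereas the probe set used here had a change of 0.11 (adjusted p = 1).

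Hsd17b6, which oxidises androstanediol and retinol, read 522 and 336 at 18 h, against 1069 and 1201 at time 0 (log2 change -1.40, SE 0.31, adjusted p = 0.0073), and was called only with the second arrays of both groups in the fit. Hsd17b7, an enzyme of cholesterol synthesis, read 711 and 388 at 18 h, against 418 and 338 at time 0, and was not called (log2 change 0.47, SE 0.23, adjusted p = 0.288). Hsd11b1, which regenerates active glucocorticoid, read 4345 and 3264 at 18 h, against 2419 and 4346 at time 0 (adjusted p = 0.822). Hsd3b7, of bile acid synthesis, had its highest values at 1 h (3291 and 3396), against 1208 and 2154 at time 0, with an adjusted p of 0.228. Hsd17b13, a protein of lipid droplets, read 1103 and 2069 at 72 h, against 175 and 919.9 at time 0, where the unoperated arrays themselves differed widely. It was not called at 72 h (adjusted p = 0.0925), but without the second time 0 array it was raised over 1 to 6 h, 12 to 30 h and 48 to 72 h, by 2.35, 2.12 and 2.42 on the log2 scale. A second probe set of Hsd17b13 read 126 and 96.3 at 72 h, against 173 and 145.3 at time 0, below the unoperated arrays. Hsd17b2, Hsd17b10, Hsd17b11 and Hsd17b12 were not called at 12 or 18 h.

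Of the 20 aldehyde dehydrogenases, 4 were lowered at 12 h and 4 at 18 h, beside 4.57% and 3.24% of all genes. Aldh1b1, a mitochondrial acetaldehyde and retinaldehyde dehydrogenase, read 77.2 and 84.3 at 12 h and 68.7 and 33.6 at 18 h, against 308 and 312 at time 0. All 4 of these arrays lay below every other adult array, and the fall was called at both times (-1.75 and -2.33 on the log2 scale, adjusted p = 0.000475 and 2.96e-05). Aldh3a2, which oxidises long-chain fatty aldehydes, read 229 and 143 at 18 h, against 633 and 789 at time 0 (log2 change -1.87, SE 0.26, adjusted p = 0.000121). At 30 h it read 481 and 494, still below both time 0 arrays. It was also called lowered at 48 h (400.0 and 247, adjusted p = 0.0366), where array 2 stands apart. Aldh4a1, which completes the breakdown of proline to glutamate, fell at 12 h to 303 and 209.6, against 602 and 534 at time 0 (log2 change -1.12, SE 0.30, adjusted p = 0.022), a call lost without any of 3 of the 4 arrays. Aldh8a1, of the tryptophan pathway, read 765 and 332 at 12 h, against 1237 and 1796 at time 0 (log2 change -1.53, SE 0.40, adjusted p = 0.0182), and lost its call without the second array of either group. Aldh1a7, a close copy of Aldh1a1, fell at 18 h to 970.1 and 506, against 1291 and 1825 at time 0 (log2 change -1.11, SE 0.27, adjusted p = 0.0134), and this call was lost without the second array of either group. Aldh1a1 itself, the abundant cytosolic retinaldehyde dehydrogenase, read 4156 and 1793 at 18 h, against 2541 and 5105 at time 0, with ranges that overlap (adjusted p = 0.758).

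Aldh9a1 was the 1 member raised at 12 h. It makes a precursor of carnitine, and read 2872 and 2684 at 12 h and 2243 and 2139 at 18 h, against 1143 and 1749.8 at time 0 (log2 change 0.97, SE 0.21, adjusted p = 0.00449 at 12 h). Its 4 arrays of 12 and 18 h included the highest 2 of the adult series, both of 12 h, and the call was lost without the first time 0 array. It is named after its values were seen. Aldh2, the main mitochondrial acetaldehyde dehydrogenase, read 3544 and 2977 at 18 h, against 2019.7 and 3825 at time 0, and was not called at 12 or 18 h (adjusted p = 0.897 and 0.872). Neither were Aldh1l1, the cytosolic formyltetrahydrofolate dehydrogenase, Aldh6a1, of valine breakdown, Aldh18a1, which makes the proline precursor, and Aldh1a2 and Aldh1a3, which make retinoic acid. Their adjusted p at 18 h were 0.973, 0.153, 0.969, 0.845 and 0.767. Aldh1l2, the mitochondrial counterpart of Aldh1l1, and Aldh3a1 stayed below the median of all array values (74.6) in every group.

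In the alcohol dehydrogenase cluster of chromosome 3, where Adh7, Adh1, Adh6a, Adh6b, Adh6-ps1, Adh4 and Adh5 are neighbours, Adh4 alone was called at 12 h. Adh4, a liver enzyme for retinol and larger alcohols, read 216 and 137 at 12 h and 619.6 and 235 at 18 h, against 729 and 697 at time 0. Both 12 h arrays were lower than all other adult arrays, and the fall was called (log2 change -1.95, SE 0.33, adjusted p = 0.000596). At 24 h it read 1298 and 866 and at 72 h 1084 and 1387, with an adjusted p of 0.594 and 0.304. Adh1, the main ethanol-oxidising enzyme of mouse liver, read 4778 and 4571 at 12 h, between its time 0 values of 4059 and 5897 (log2 change -0.07, SE 0.31, adjusted p = 0.955). The call of Adh4 and its absence for Adh1 are separate tests, and the difference between the genes was not tested. Adh5, the glutathione-dependent formaldehyde dehydrogenase found in most cells, read 1906 and 1758 at 12 h, against 1323 and 1996 at time 0, and was not called. Adh6a, Adh6b and Adh6-ps1 were not called at 12 or 18 h, and no alcohol dehydrogenase was lowered at 18 h. The probe sets of Adh7 disagree. The brighter read 212 and 164.6 at 18 h, against 192 and 156 at time 0 (log2 change 0.10, SE 0.20, adjusted p = 0.884), and the dimmer, looked at after its values were seen, 169.6 and 88.2, against 22.3 and 20.3. With the mean of both probe sets Adh7 was raised at 18 h (log2 change 1.00, adjusted p = 0.00151).

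Among the 13 carboxylesterases Ces1e, a resident of the endoplasmic reticulum known as egasyn, was the only one lowered at 18 h, and it stayed low. It read 238 and 153 at 18 h and 156 and 84.8 at 24 h, against 492 and 408 at time 0. All its arrays from 12 to 72 h lay below both time 0 arrays. The fall was called at 18 h (log2 change -1.16, SE 0.25, adjusted p = 0.00519), at 24 h (log2 change -1.82, SE 0.25, adjusted p = 0.000447) and at 72 h (173 and 274, log2 change -0.99, SE 0.25, adjusted p = 0.0302), and the call over 48 to 72 h was lost without either time 0 array or the first 72 h array. Ces1f read 452 and 504 at 18 h and 772 and 156 at 24 h, against 1287 and 2232 at time 0, and was not called at either time (adjusted p = 0.0584 and 0.061). The arrays of 24 h differed from each other here, as they did for Ces1d, the triglyceride hydrolase (1549 and 418 at 24 h, against 1233 and 2460.1 at time 0), and for Ces1g (511 and 118 at 24 h, against 476 and 650.0 at time 0). Ces2a was lowered at 48 h, at 491 and 349, against 977 and 927 at time 0 (log2 change -1.17, SE 0.27, adjusted p = 0.0297), where array 2 stands apart. Ces1c, the esterase that mouse liver secretes into plasma, read 5299.5 and 4476 at 18 h, against 3654 and 5703 at time 0, and was not called. Ces1h read below 2 on all 32 arrays.

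The 1 h arrays were the other extreme. Of the 66 genes that passed the median of all array values in at least 1 adult group, 35 had their highest mean of the 10 adult groups at 1 h (53%), beside 18% of 13829 such genes of the array, and 22 had their lowest at 18 h (33.3%), beside 8.4%. The median log2 change at 1 h was 0.39 over the 72 genes and 0.03 over all genes. None of the 72 was called raised at 1 h (0.396% of all genes were), and 0 were lowered (0.0769%), with 16 at an unadjusted p under 0.05. The median at 1 h was 0.27 without the first time 0 array and 0.11 after quantile normalization of the arrays. At 72 h the median was 0.19 as deposited and -0.03 after quantile normalization, whereas at 18 h that normalization gave -0.46.

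The marker genes fixed for hepatocytes, of which 5 of 6 were measured (Alb, Ttr, Apoa1, Tat and Cyp2e1), summed to 41015 and 37249 at 18 h and 37228 and 30798 at 12 h, against 30182 and 31140.1 at time 0, and Tat, one of them, read 3231 and 3114 at 18 h, against 1099 and 1093 at time 0. Neutrophil markers (5 of 5) summed to 1515 and 1228 at 18 h and 1557 and 1146 at 12 h, against 618 and 657 at time 0. Macrophage markers (6 of 7) summed to 3067 and 2846 at 18 h, against 2947 and 3042 at time 0. Within that sum the genes went in different directions. Marco read 508.65 and 509.15 at 18 h, against 134.02 and 86.63 at time 0. Clec4f read 219.70 and 164.97 at 18 h, against 497.47 and 339.32 at time 0. Csf1r, the largest part of the sum, read 1424.66 and 1352.70 at 18 h, against 1263.14 and 1642.69 at time 0. Markers of stellate cells and mesenchyme (7 of 8) summed to 1634 and 1393 at 18 h, against 1168 and 1497 at time 0. The part of these cell types in these results was not tested.

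**Figure D3:**
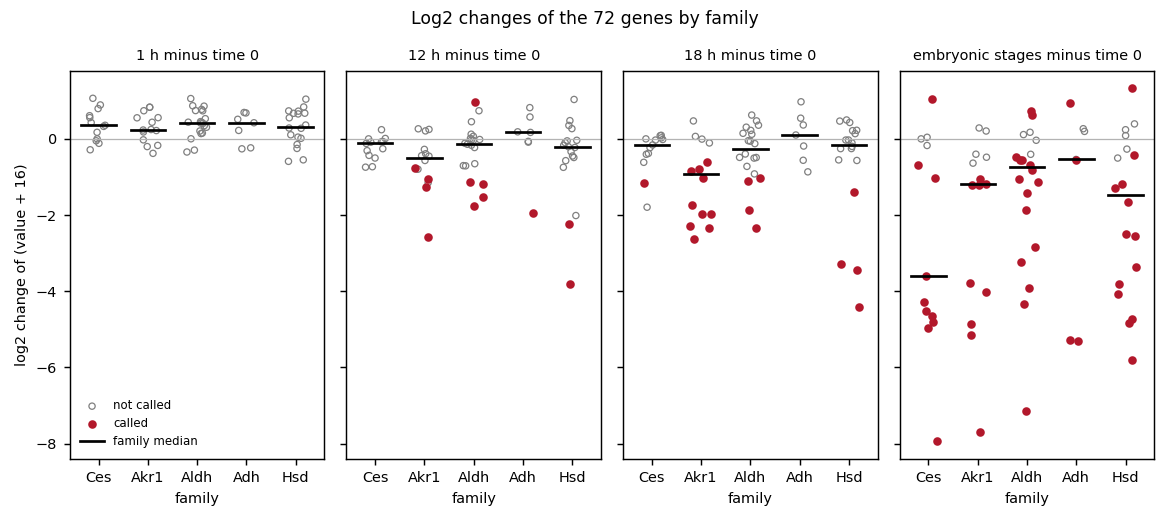
Log2 change of (value + 16) of each of the 72 genes at 1, 12 and 18 h after hepatectomy and in the embryonic stages, each minus time 0, by family (Ces, carboxylesterases; Akr1, aldo-keto reductases; Aldh, aldehyde, Adh, alcohol and Hsd, hydroxysteroid dehydrogenases); filled points are called and bars are family medians. The Akr1 points spread downwards at 18 h, and the embryonic panel has the lowest points in every family.

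Most of these genes were lowered in embryonic liver. Over the mean of the 6 stages against time 0, 47 of the 72 genes were lowered and 5 raised, where 24.6% of all genes were lowered and 30.5% raised, and 20 were not called. Without either time 0 array, 3 were raised. The median log2 change was -1.10 over the 72 genes and 0.02 over all genes. It was lowest in the carboxylesterases (-3.60), followed by the hydroxysteroid dehydrogenases (-1.47), the aldo-keto reductases (-1.20), the aldehyde dehydrogenases (-0.75) and the alcohol dehydrogenases (-0.54). For 26 of the 72 genes (36.1%) all 12 embryonic arrays lay below all 20 adult arrays, those after hepatectomy included, beside 7.52% of all genes. For 0 of the 72 they lay above, beside 14.9% of all genes. Fetal blood cells share the embryonic organ: erythroid markers (8 of 9) summed to 15330 to 24077 on embryonic arrays, against 848 and 1200 at time 0, with Hbb-bh1 at 19.8 and -6.95 at time 0. Hepatocyte markers (5 of 6) summed to 5111 to 23428, against 30182 and 31140.1 at time 0. They did not move as one. At 16.5 dpc Alb read 8695 and 8651, against 8205 and 7464 at time 0, and Ttr 7856 and 8103, against 7416 and 7674. Apoa1 read 6485 and 6581, against 8168 and 7924, and Cyp2e1 79.1 and 93.2, against 5294 and 6985. Tat was at -15.8 to 18.5 over the embryonic arrays. The part of these cell types in the embryonic differences was not tested.

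Several genes with high adult values were at the floor in the embryo. Ces1c had a lowest value of -16.4, a median of 2.51 and a highest of 8.09 on the 12 embryonic arrays, against 3654 and 5703 at time 0. Akr1c6 had a lowest value of -51.7, a median of -9.46 and a highest of 21.99, against 2635 and 5018 at time 0. Aldh1a1 had a lowest value of -42.2, a median of 7.33 and a highest of 35.5, against 2541 and 5105 at time 0. Adh4 had a lowest value of -4.10, a median of 1.86 and a highest of 8.65, against 729 and 697 at time 0. For these 4 the embryonic values centre on 0, so no fold can be given, and the log2 changes of -7.93, -7.71, -7.14 and -5.32 become -6.11, -5.81, -5.61 and -3.55 when 64 is added in place of 16. All were called with either constant, the largest adjusted p of the 4 being 3.18e-13 with 16.

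Of the 13 carboxylesterases, 9 were lowered in the embryo, 1 raised and 3 not called, where 24.6% of all genes were lowered and 30.5% raised. Ces1e (-3.62 to 17.1 on embryonic arrays), Ces1g (-2.08 to 22.7) and Ces1f (16.3 to 113) were low at every stage, against 492 and 408, 476 and 650.0 and 1287 and 2232 at time 0. Ces1d was low but measured, with 213 and 326 at 16.5 dpc, against 1233 and 2460.1 at time 0 (log2 change -3.60, SE 0.37, adjusted p = 3.44e-08 over the stages). Ces2a read 49.9 and 52.1 at 16.5 dpc, against 977 and 927 at time 0, and its values at 10.5 dpc were below 0. Ces2b was the one carboxylesterase called raised in the embryo. It read 616 and 469 at 10.5 dpc and 1366 and 1541 at 16.5 dpc, against 356 and 649 at time 0 (log2 change 1.04, SE 0.24, adjusted p = 0.00103). The call was lost without the first time 0 array. Ces1h, Ces4a and Ces5a were the 3 that were not called. The probe sets of Ces5a disagree. The one used here read 222.49 and 261.95 at 18 h, against 238.21 and 250.79 at time 0. Another, looked at after its values were seen, read 192.12 and 164.11 at 18 h, against 19.88 and 32.61 at time 0. That probe set read -4.10 to 12.04 on embryonic arrays and was not tested by itself. The last read 114.19 and 168.29 at 18 h, against 429.27 and 161.11 at time 0.

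All 3 alcohol dehydrogenases that were lowered in the embryo, Adh1, Adh4 and Adh7, are retinol-oxidising members. Adh1 had a lowest value of 42.7, a median of 108 and a highest of 268, against 4059 and 5897 at time 0 (log2 change -5.29, SE 0.24, adjusted p = 7.21e-14). Adh7, best known from stomach epithelium, differed little, with 93.1 to 138 against 192 and 156 at time 0 (log2 change -0.56, SE 0.16, adjusted p = 0.00429), a call that was lost without the first time 0 array. Adh5 had a lowest value of 936, a median of 1121 and a highest of 1319, against 1323 and 1996 at time 0. Its embryonic arrays all lay below both time 0 arrays, but it missed the threshold (log2 change -0.54, SE 0.24, adjusted p = 0.0568). Adh6a was raised (log2 change 0.95, SE 0.27, adjusted p = 0.00565) from a low level, 40.2 to 112 in the embryo against 30.3 and 38.1 at time 0, and lost its call without the first time 0 array.

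Among the 20 aldehyde dehydrogenases 14 were lowered in the embryo, 2 raised and 4 not called, where 24.6% of all genes were lowered and 30.5% raised. The retinaldehyde dehydrogenases went separate ways: Aldh1a1 and its copy Aldh1a7 (41.1 to 85.0 against 1291 and 1825 at time 0) were low. Aldh1a2, the retinoic acid source of embryonic mesenchyme, read 1424 and 947 at 10.5 dpc, against 595 and 525 at time 0. It read 489 and 424 at 13.5 dpc, 563 and 508 at 14.5 dpc and 492 and 714 at 16.5 dpc. The value of 1424 is of the array with the highest Gapdh ratio of 3' to 5' signal. Over the stages Aldh1a2 fell by 0.13 on the log2 scale per day (adjusted p = 0.00175), and its mean over the stages was not called against time 0 (adjusted p = 0.355). Markers of stellate cells and mesenchyme (7 of 8) summed to 8279 and 6881 at 10.5 dpc and 3244 and 3456 at 16.5 dpc, against 1168 and 1497 at time 0, and their part in this was not tested. Aldh1a3 was not called, and its probe sets disagree: the brightest read 247 and 144 at 14.5 dpc, against 187 and 400.0 at time 0, and another 40.1 and 56.9, against 259.6 and 237. Aldh18a1, which makes the precursor of proline, was raised (log2 change 0.63, SE 0.20, adjusted p = 0.0127), with a lowest value of 525, a median of 605 and a highest of 865, against 490.0 and 320.0 at time 0, and its call was lost without the second time 0 array and after quantile normalization. A dimmer probe set of Aldh18a1 whose name does not mark it as shared differed more, with 311 and 295 at 14.5 dpc, against 45.3 and 45.4 at time 0. Aldh4a1, which works on the opposite side of proline metabolism, was lowered (log2 change -1.07, SE 0.23, adjusted p = 0.000491). Aldh1l2 was raised within values under the median of the array (33.7 to 68.0 against 26.5 and 16.6 at time 0, adjusted p = 0.00397), a call lost without the second time 0 array.

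Aldh1l1, the folate enzyme, was lowered in the embryo (log2 change -3.90, SE 0.29, adjusted p = 1.62e-10) and climbed over the stages, at 22.3 and 26.8 at 10.5 dpc and 213 and 198 at 14.5 dpc, against 1184 and 1801 at time 0. Aldh6a1 (log2 change -2.85, SE 0.22, adjusted p = 3.61e-10) and Aldh8a1 (log2 change -3.24, SE 0.31, adjusted p = 9.52e-09) were lowered as well. Aldh2 was lowered less, with a lowest value of 717, a median of 1047 and a highest of 1514, against 2019.7 and 3825 at time 0 (log2 change -1.43, SE 0.32, adjusted p = 0.000626), and lost its call without the second time 0 array. Aldh1b1 reached the unoperated adult level before birth, at 305 and 385 at 14.5 dpc and 315 and 291 at 16.5 dpc, against 308 and 312 at time 0, so that its mean over the stages (-0.69, adjusted p = 0.0119) rests on the early ones. That call was lost without either time 0 array. Aldh1b1 values of 18 h after hepatectomy (68.7 and 33.6) lay beside the lowest embryonic ones (64.7 and 76.4 at 10.5 dpc).

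Of the 14 aldo-keto reductases 9 were lowered in the embryo, 0 raised and 5 not called, where 24.6% of all genes were lowered and 30.5% raised. Akr1c14, Akr1c20, Akr1c21 and Akr1c6 had all embryonic arrays below all adult arrays. Akr1c14 read -4.69 to 35.5 in the embryo, against 864 and 947 at time 0 (log2 change -5.14, SE 0.24, adjusted p = 9.21e-14), and Akr1c21 -7.83 to 25.3, against 356 and 299 at time 0. Both sit so close to 0 in the embryo that the size depends on the added constant, the change of Akr1c14 being -3.69 with 64 in place of 16. Their chromosomal neighbours Akr1c12 and Akr1c19 were higher at 16.5 dpc than at 10.5 dpc. Akr1c12 read 25.7 and 42.0 at 10.5 dpc and 313 and 288 at 16.5 dpc, against 388 and 437 at time 0. Akr1c19 read 65.6 and 115.02 at 10.5 dpc and 431 and 385 at 16.5 dpc, against 484 and 341 at time 0, and was not called over the stages (adjusted p = 0.0576). Akr1a1 read 3149 to 4876 in the embryo, against 1981 and 4468 at time 0, and Akr1b8 107 to 157, against 103 and 109 at time 0, with adjusted p of 0.523 and 0.0978. Akr1d1, of bile acid synthesis, was lowered (log2 change -4.86, SE 0.30, adjusted p = 8.38e-12) and read 3.63 and -4.71 at 11.5 dpc and 71.2 and 80.7 at 14.5 dpc.

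The pair of enzymes that switch glucocorticoids on and off ran in opposite directions. Hsd11b2, which inactivates glucocorticoid in kidney and placenta, read 711 and 749 at 10.5 dpc, 264 and 321 at 11.5 dpc, 108 and 123 at 12.5 dpc and 33.6 and 91.9 at 16.5 dpc, against 46.0 and 47.2 at time 0. It was raised over the stages (log2 change 1.33, SE 0.26, adjusted p = 0.000177) and fell by 0.56 on the log2 scale per day (adjusted p = 1.55e-08), both calls holding in every setting tried. Hsd11b1 had a lowest value of 21.2, a median of 40.4 and a highest of 96.1, against 2419 and 4346 at time 0 (log2 change -5.80, SE 0.24, adjusted p = 1.84e-14). At 16.5 dpc it read 61.9 and 96.1, the second array being the highest of the 12. Hsd11b1 was called as rising with stage, from and to values far below those of time 0. Markers fixed for neighbouring organs of the embryo, 13 of 13 measured, kidney and gonad genes among them, were led by Fabp2 and Cpa1 and summed to 1920.4 and 1505 at 10.5 dpc, against 2272 and 2214 at time 0, and the mesenchyme markers given above were lower at 16.5 dpc than at 10.5 dpc. Sox2, of the neighbouring organs list, read 80.4 and 85.7 at 10.5 dpc and 0.996 and -1.84 at 16.5 dpc, against -7.14 and -0.396 at time 0. Their part in it was not tested.

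Of the 18 hydroxysteroid dehydrogenases 12 were lowered in the embryo, 1 raised and 5 not called, where 24.6% of all genes were lowered and 30.5% raised. Hsd17b6 had a lowest value of 18.2, a median of 24.5 and a highest of 35.8, against 1069 and 1201 at time 0 (log2 change -4.84, SE 0.24, adjusted p = 3.14e-13), and Hsd3b2, Hsd3b3 and Hsd3b5 were lowered too, with Hsd3b3 at -45.8 to 60.5, against 630.4 and 564 at time 0, and Hsd3b5 at 19.3 to 37.3, against 549 and 320.3 at time 0. Hsd17b13 was below 0 until 12.5 dpc and read 87.2 and 86.7 at 16.5 dpc, against 175 and 919.9 at time 0. Hsd17b2, which inactivates estradiol and testosterone, read 66.3 and 12.0 at 10.5 dpc and 467 and 469.9 at 14.5 dpc, against 1121 and 1316 at time 0 (log2 change -2.55, SE 0.25, adjusted p = 2.13e-08). Hsd3b7 was lowered (log2 change -2.50, SE 0.24, adjusted p = 1.10e-08), as were Hsd17b11 (log2 change -1.67, SE 0.18, adjusted p = 1.01e-07) and Hsd17b7 (log2 change -1.20, SE 0.18, adjusted p = 6.79e-06). Hsd17b10, a mitochondrial enzyme of isoleucine breakdown, and Hsd17b12, which elongates long fatty acids, read 567 to 698 in the embryo against 554 and 495 and 523 to 672 against 721 and 677 at time 0, and were not called (adjusted p = 0.41 and 0.22). Hsd3b1, the adrenal and gonadal form, was not called either.

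**Figure D4:**
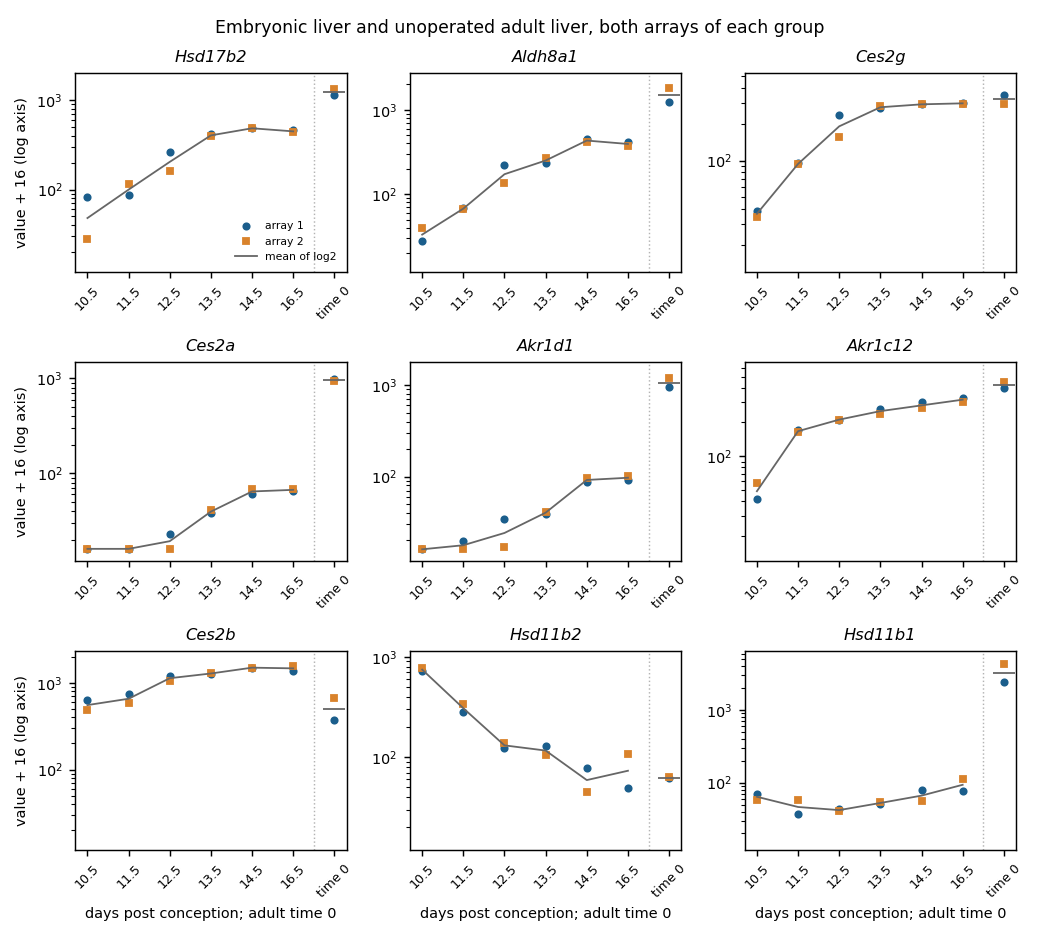
Value + 16 on a log axis for 9 genes at 6 embryonic stages, with unoperated adult liver (time 0) at the right of each panel; points are the 2 arrays and the line and the bar give the means of their log2 values. Most panels climb towards the adult value, Ces2b passes it, Hsd11b2 runs down and Hsd11b1, though it rises, stays far below the adult.

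Within the embryonic series, 25 of the 72 genes rose with stage and 2 fell (Aldh1a2 and Hsd11b2), where 16.2% of all genes rose and 11.4% fell, and an F test over the 6 stages called 24, beside 20.8% of all genes. The genes that rose were 8 aldehyde dehydrogenases, 6 aldo-keto reductases, 5 carboxylesterases, 5 hydroxysteroid dehydrogenases and 1 alcohol dehydrogenase. The steepest was Aldh8a1, at 0.62 on the log2 scale per day (SE 0.06, adjusted p = 3.97e-08). It read 11.9 and 23.6 at 10.5 dpc, 204 and 119 at 12.5 dpc and 401 and 357 at 16.5 dpc. Hsd17b2 followed at 0.56 per day, Akr1d1 at 0.51, Hsd17b13 at 0.50, Ces2g at 0.48 and Ces2a at 0.42, with adjusted p from 3.05e-10 to 7.74e-05. Ces2g levelled off at 13.5 dpc, at 255 and 266, and read 283 and 281 at 16.5 dpc, against 337 and 276 at time 0. Akr1d1 and Ces2a were still far from the adult at the last stage, with 76.4 and 86.1 and 49.9 and 52.1 at 16.5 dpc, against 937 and 1180.1 and 977 and 927 at time 0. The hepatocyte marker sum was 5927 and 5111 at 10.5 dpc and 23120.5 and 23428 at 16.5 dpc, and its part in the rise was not tested.

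The comparison of 18 h with time 0 and that of the embryo with time 0 share the unoperated arrays, and their values are only set side by side. Akr1c14, Akr1d1, Hsd3b3 and Hsd17b6 were lowered in both, but their embryonic values lie so near 0 that the sizes of the changes cannot be set against each other. Other genes lowered in the embryo were not called at 18 h, where Ces1c stood at 0.09, Hsd11b1 at 0.21, Ces2a at -0.16 and Adh1 at -0.56 on the log2 scale.

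Other genes of the same routes were counted from lists drawn up with earlier results of these data known. Of 23 measured genes of retinoid handling (26 listed), 11 were lowered and 3 raised in the embryo, where 24.6% of all genes were lowered and 30.5% raised. Rdh7, a retinol dehydrogenase, was lowered (log2 change -6.82, adjusted p = 7.19e-15), as was Cyp26a1, which degrades retinoic acid (log2 change -2.89, adjusted p = 3.39e-08), and Crabp1, a retinoic acid binding protein, was raised (log2 change 1.92, adjusted p = 7.02e-09). Over 12 to 30 h, where 2.1% of all genes were lowered and 2.54% raised, Rdh16 (log2 change -1.16, adjusted p = 0.000487) and Dhrs3, a retinaldehyde reductase (log2 change -1.24, adjusted p = 0.0012), were lowered and Bco1, which makes retinaldehyde from carotene, was raised (log2 change 1.26, adjusted p = 0.0103). Of 15 measured genes of steroid handling (21 listed), 8 were lowered and 1 raised in the embryo, the raised one being Serpina6, the plasma carrier of glucocorticoid (log2 change 1.27, adjusted p = 0.0232). At 12 to 30 h the steroid receptors Nr3c1 (log2 change -0.66, adjusted p = 0.0207) and Nr3c2 were lowered and Sult1e1, the estrogen sulfotransferase, was raised (log2 change 3.96, adjusted p = 4.43e-05), the last also over 48 to 72 h.

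Of 14 measured genes of folate one-carbon metabolism (16 listed), 6 were raised, 5 lowered and 3 not called in the embryo. Of all genes 30.5% were raised and 24.6% lowered. The list thus went in both directions, and it was not tested as a set. The mitochondrial Mthfd2 (log2 change 2.68, adjusted p = 1.52e-12) and Mthfd1l (log2 change 2.85, adjusted p = 4.54e-12) were raised and Ftcd, of histidine breakdown, lowered (log2 change -2.45, adjusted p = 4.91e-08). Of 6 measured genes of proline and glutamate metabolism (11 listed), Prodh, the first step of proline breakdown, was lowered in the embryo (log2 change -2.35, adjusted p = 7.09e-09), with 4 lowered and 1 raised in all, too few genes to read against those shares. Of 15 measured genes of ethanol and aldehyde handling (16 listed), 9 were lowered and 2 raised in the embryo (24.6% and 30.5% of all genes), Cyp2e1 among the first (log2 change -6.22, adjusted p = 1.20e-17) and Acss1, a mitochondrial acetate-activating enzyme, among the second (log2 change 3.98, adjusted p = 1.49e-14). Over 12 to 30 h, 4 of these 15 were lowered (2.1% of all genes), among them Acss2, the cytosolic form (log2 change -1.36, adjusted p = 0.00134), and Aox3, an aldehyde oxidase (log2 change -1.28, adjusted p = 0.00362).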

How the data were processed

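Values were array intensities on a linear scale, 1 per probe set and array, as deposited. Which software and normalization made them is not given in the sources used here. The median of an array lay between 69.7 and 79.5, and 2.54% to 4.02% of values were below 0. Of 45101 probe sets, 34958 name 1 gene in the platform annotation, and the probe set of highest mean log2(value + 16) stood for each of 18194 genes. With values below 0 raised to 0, log2(value + 16) was fitted in limma 3.58.1 (R 4.3.3) with 1 mean per group over all 32 arrays, moderated with an intensity trend. P-values were Benjamini-Hochberg adjusted over all genes and called under 0.05. The number of arrays, 2 in each group, limits the precision. The fit was tested on simulated data.

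The members, gene lists and tests were chosen with earlier results of these data known. Genes named were, in each of 5 main contrasts, the 6 called members of largest change in each direction whose higher group mean was above the median of all values, with a list of known genes of each family. Akr1c12, Akr1c13, Akr1c21, Akr1cl, Akr1e1, Aldh9a1, Adh6b, Adh6-ps1, Ces4a and Ces5a, where outside this rule, were named after their values were seen. The 6 probe sets shared by several symbols entered no test. Alternatives were another added constant, quantile normalization, a filter on low values, other choices of probe set, a fit of the compared arrays alone, array weights, a replicate block and leaving out each array.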

Additional observations from a re-analysis of the deposited data

How the results depend on the processing

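Of 318 recomputed counts of members, 283 stayed within 1.5 times the reported one. These include counts of 0 that stayed 0, so the share does not measure how stable the larger counts are. After quantile normalization 19 members were lowered over 12 to 30 h, 7 over 48 to 72 h and 4 in the embryonic trend, and Adh1 (-0.55, adjusted p = 0.0185) and Ces1c (-0.51, adjusted p = 0.0272) turned to a call of lower over 12 to 30 h. A fit of only the arrays compared has fewer samples to estimate the spread, and called 1 member lowered over 12 to 30 h, 0 over 48 to 72 h, 2 at 18 h, 0 lowered and 0 raised at 12 h, and 18 in the F test over the 9 times. With array weights 1 was lowered over 48 to 72 h and 1 raised at 1 h. The mean of a gene's probe sets gave 1 raised at 18 h, Adh7, and Ces5a lowered in the embryo (-0.45, adjusted p = 0.00508). Without probe sets marked as shared, 1 was lowered over 1 to 6 h, Hsd3b3 (-1.60, adjusted p = 0.000172). Choosing probe sets by the linear mean, an alternative chosen after seeing the data, changed the probe set of 0 members. Leaving out 1 array at a time gave the following ranges. Over 1 to 6 h 0 to 1 were raised (1 without time 0 array 2) and 0 to 0 lowered. Over 12 to 30 h 0 to 1 were raised and 6 to 13 lowered (6 without time 0 array 2, 13 without 24 h array 1). Over 48 to 72 h 0 to 1 were raised and 1 to 6 lowered (6 without 48 h array 1, 1 without either time 0 array or 72 h array 1). At 1 h 0 to 0 were raised and 0 to 1 lowered, at 12 h 0 to 2 raised and 6 to 12 lowered (6 without time 0 array 2, 7 without time 0 array 1 or 12 h array 2), and at 18 h 0 to 1 raised and 10 to 18 lowered (10 without 18 h array 2, 12 without time 0 array 2). In the embryo 3 to 5 were raised (3 without either time 0 array) and 43 to 48 lowered, and in the trend 22 to 25 rose and 1 to 2 fell. The F tests called 29 to 46 over the times (46 without 48 h array 1) and 21 to 24 over the stages. Where no value is given for a cause, the cause was not tested. The reported fit did not pair samples by the replicate numbers of the labels. Over 120 pairs of groups the correlation of same-numbered deviations ran from -0.401 to 0.586, with a median of -0.00838, and 19 were over 0.1. A median near 0 cannot tell whether some of the groups were paired. With a replicate block 24 members rose in the trend, and the other counts were 9 lowered over 12 to 30 h, 11 at 12 h, 19 at 18 h, and 5 raised and 47 lowered in the embryo, as without it. Signals near 0, as in many embryonic values, set a floor below which these arrays order nothing.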

Other observations

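Probe sets that name several genes entered no comparison, and their values are given here without a test. The probe set shared by Ces3a and Ces3b, esterases of stored triglyceride, read 3322 and 2713 at 18 h, against 1725 and 4025 at time 0. On the 12 embryonic arrays it had a lowest value of 0.946, a median of 10.95 and a highest of 15.2. The probe set shared by Hsd3b6, Hsd3b3 and Hsd3b2 read 67.2 and 109 at 18 h, against 661 and 549 at time 0, and 82.8 to 254 in the embryo. That of Akr1c12 and Akr1c13 read 528 and 340.3 at 18 h, against 795 and 853 at time 0, and a median of 353 in the embryo.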
